A study of Mus musculus with 39 samples.

Results

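The genes described here make, lipidate and export the chylomicron, the particle in which enterocytes send dietary fat to the lymph. They are Apob, Apobec1, Mttp, Apoa1, Apoa4, Apoc3, Sar1b, Pla2g12b, Tm6sf2 and Creb3l3, 10 of the 56980 genes in the count files, found by matching Ensembl identifiers to mouse symbols. Their RNA was counted in scrapings of the proximal small intestine of 39 female C57BL/6JRccHsd mice, aged 42 days and killed in the fed state. The mice had been weaned at day 21 and given 1 of 3 diets for 3 weeks, with 13 mice per diet. In the lactose diet 32% of energy (en%) was lactose, in the galactose diet 16 en% was galactose and 16 en% glucose, and in the glucose diet 32 en% was glucose. Starch at 32 en%, fructose at 3 en%, protein at 20 en% and fat at 20 en% were the same in all 3 diets. Scrapings hold mainly enterocytes, per the labels, and come from the upper part of the intestine without the first 2 cm of duodenum. Each library is taken here as 1 mouse, so p-values measure the spread between mice. In bulk tissue of this kind, fewer cells of a type and less RNA per cell cannot be told apart.

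Chylomicrons are assembled in the endoplasmic reticulum of the absorptive enterocyte. Mttp, the microsomal triglyceride transfer protein, loads lipid onto Apob, the large structural protein of the particle, which in the gut is shortened because the deaminase Apobec1 edits its messenger RNA. Tm6sf2 and Pla2g12b are endoplasmic reticulum proteins that help the particle take up more lipid, and Sar1b is the small GTPase of the COPII coat that lets it leave for the Golgi. Apoa1, Apoa4 and Apoc3 are exchangeable apolipoproteins carried on the surface of the particle and encoded side by side on chromosome 9. Creb3l3 is a membrane-bound transcription factor of liver and intestine that is released by cleavage and is known to activate apolipoprotein genes, Apoa4 among them.

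The sequences just upstream of 6 of these genes are shown because 5 of them differed between diets in the tests given further on and Apoa4 is the most abundant. Each run is the 250 bases before the annotated start, 5′ to 3′ on the strand of the gene, from RefSeq on build GRCm38.p6. RefSeq promoter entries were matched for 8 of the 10 genes. Capitals mark matches on either strand to CAAAGNNCA, the direct repeat bound by HNF4, to TGACG, a cAMP response element half-site, and to the TATA box TATAAA.
Apob: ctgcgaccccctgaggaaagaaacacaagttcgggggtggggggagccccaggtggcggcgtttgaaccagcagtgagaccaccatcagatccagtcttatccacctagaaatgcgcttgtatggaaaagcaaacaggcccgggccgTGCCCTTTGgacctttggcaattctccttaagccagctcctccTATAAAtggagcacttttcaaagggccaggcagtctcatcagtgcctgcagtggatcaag
Mttp: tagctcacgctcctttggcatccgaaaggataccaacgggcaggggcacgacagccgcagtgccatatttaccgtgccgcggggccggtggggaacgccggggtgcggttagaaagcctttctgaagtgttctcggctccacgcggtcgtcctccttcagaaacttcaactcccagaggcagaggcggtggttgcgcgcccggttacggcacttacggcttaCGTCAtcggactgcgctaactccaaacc
Apoa4: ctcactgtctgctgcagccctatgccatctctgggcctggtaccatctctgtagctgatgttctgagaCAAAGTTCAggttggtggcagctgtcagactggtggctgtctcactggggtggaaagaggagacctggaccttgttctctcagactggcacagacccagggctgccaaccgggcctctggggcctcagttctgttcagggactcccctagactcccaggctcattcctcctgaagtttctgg
Sar1b: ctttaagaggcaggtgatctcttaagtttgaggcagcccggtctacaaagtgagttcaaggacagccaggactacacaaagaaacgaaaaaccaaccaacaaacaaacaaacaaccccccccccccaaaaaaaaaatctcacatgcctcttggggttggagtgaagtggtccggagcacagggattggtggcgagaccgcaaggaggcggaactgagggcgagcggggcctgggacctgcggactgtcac
Pla2g12b: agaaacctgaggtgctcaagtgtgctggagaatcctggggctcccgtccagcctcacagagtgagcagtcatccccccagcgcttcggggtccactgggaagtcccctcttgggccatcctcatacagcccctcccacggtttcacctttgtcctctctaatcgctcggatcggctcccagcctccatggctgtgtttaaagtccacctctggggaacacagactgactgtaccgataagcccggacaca
Creb3l3: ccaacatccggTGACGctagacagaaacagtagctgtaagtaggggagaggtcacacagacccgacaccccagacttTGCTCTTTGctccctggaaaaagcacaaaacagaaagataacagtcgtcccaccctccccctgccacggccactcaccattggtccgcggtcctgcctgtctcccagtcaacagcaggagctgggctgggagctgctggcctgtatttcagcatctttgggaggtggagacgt
These windows are chr12:7977427-7977676 on the plus strand for Apob, chr3:138143419-138143668 on the minus strand for Mttp and chr9:46240594-46240843 on the plus strand for Apoa4. They are chr11:51763413-51763662 on the plus strand for Sar1b, chr10:59403435-59403684 on the plus strand for Pla2g12b and chr10:81092592-81092841 on the minus strand for the first of 2 Creb3l3 starts. The HNF4-type letters lay at -103 to -95 in Apob, at -182 to -174 in Apoa4 and at -173 to -165 in Creb3l3, counted from the start, and were also found in Apobec1. They occur in 5.49% of 32851 RefSeq promoter windows of this length. TGACG or its reverse lay at -28 to -24 in Mttp and at -239 to -235 in Creb3l3 and occurs in 17.8% of windows, while TATAAA lay at -60 to -55 in Apob and at -212 to -207 on the opposite strand in Apobec1 and occurs in 12.4%. The windows of Sar1b and Pla2g12b held none of the 3, and no matched window of these genes held the HNF1 letters GTTAAT (6.43% of windows) or the E-box CACGTG (6.02%). A match describes letters and is not a binding site.

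Libraries held 19685385 to 21350610 gene counts, and 14658 genes passed the expression filter, all 10 chylomicron genes among them. All 8 enterocyte markers were detected, with a summed level of 15160 to 22080 CPM (counts scaled to a common library size) over the 39 libraries. Hepatocyte transcripts, the other main source of these apolipoproteins, were low, with a median of 0 counts for Ahsg, Fga, Fgb and Fgg, 1 for Tat, 2 for Alb, 26 for Ttr and 58 for Serpina1b, both Ttr and Serpina1b detected in every library. Galactose replicate 4 held the most pancreatic transcripts. The 7 pancreatic markers summed to at most 45880 CPM in galactose mice (median 27), 472 CPM in glucose mice (median 23) and 38 CPM in lactose mice (median 20). Over all diets, 7 libraries had Ifit3, an interferon-induced gene, above 100 CPM. Marker genes of other cell types differed between diets. The 7 smooth muscle markers summed to 57.6 to 191 CPM in lactose mice, 98.2 to 925 CPM in galactose mice and 67.9 to 262 CPM in glucose mice. Between lactose and galactose, 7 of 7 smooth muscle, 4 of 6 fibroblast and 3 of 6 stem cell markers were lower with lactose, and 1 of 8 enterocyte markers was higher. Lower with lactose were also 4 of 6 myeloid and 2 of 5 endothelial markers. Higher were 2 of 6 B and plasma cell and 2 of 5 proximal intestine markers. Of all tested genes 15.9% were higher and 15% lower in that comparison. Against glucose, 0 of 7 smooth muscle, 1 of 6 fibroblast and 2 of 6 stem cell markers were lower with lactose. The share of all genes lower there was 6.84%.

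The 10 genes together took 4.29% ± 0.554 of all counts in lactose mice, 4.76% ± 0.401 in galactose mice and 4.74% ± 0.670 in glucose mice (SD, n = 13 each). Apoa4 alone took 1.51% to 3.24% of a library, with a median of 2.46%. Per kilobase of exon, the mean level over all mice was 14010 CPM for Apoa4 and 7826 CPM for Apoa1, followed by Apoc3 at 906 CPM and Mttp at 717 CPM. Creb3l3 stood at 376 CPM per kilobase, Tm6sf2 at 292, Sar1b at 269, Apob at 253, Pla2g12b at 79.5 and Apobec1 at 34.2. The surface apolipoproteins were thus the most abundant per length, and the editing enzyme the least. Within a diet, the CPM varied most between mice for Apoa1 (coefficient of variation 22.4%) and Apoc3 (21.3%) and least for Tm6sf2 (8.57%).

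**Figure D1:**
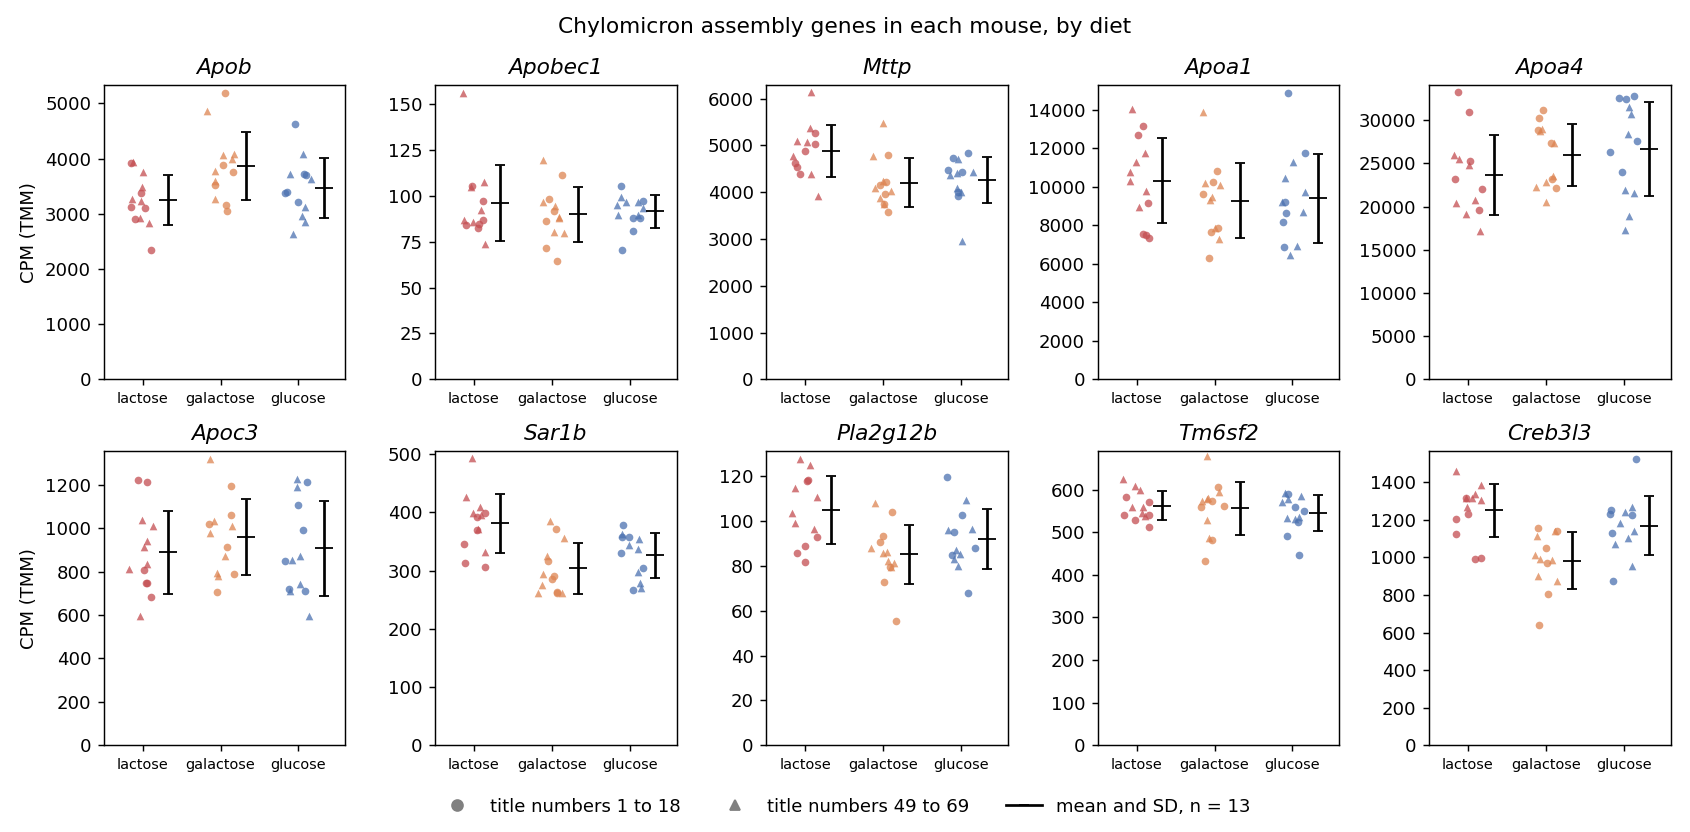
CPM (TMM-scaled) of the 10 chylomicron genes in each of 39 mice, by diet, with a panel per gene and a vertical axis from 0. Circles are mice with title numbers 1 to 18, triangles those with 49 to 69, and black bars are mean and SD (n = 13). Among the genes called in lactose over galactose, the lactose mean is highest for Mttp, Sar1b, Pla2g12b and Creb3l3. The highest single Creb3l3 value is in a glucose mouse, and the diets overlap for every gene.

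Between lactose and galactose 5 of the 10 genes passed the edgeR quasi-likelihood test, using Benjamini-Hochberg adjustment across the 14658 tested genes and a threshold of 0.05. Creb3l3, Sar1b, Pla2g12b and Mttp were higher and Apob was lower with lactose. Of all tested genes 30.9% passed in this comparison, 15.9% higher and 15% lower. Between lactose and glucose 2 of the 10 passed, Sar1b and Mttp, both higher, where 15.6% of all genes did, 8.73% higher and 6.84% lower. Between galactose and glucose 0 of the 10 passed edgeR, where 4.07% of all genes did, 1.21% higher and 2.87% lower. Creb3l3 had an edgeR p of 0.00282 there before adjustment. It was the 1 gene of the 10 called by DESeq2, where 5.58% of all genes passed, and by limma voom, where 8.51% did. A test of any difference between diets in edgeR called 4 of the 10, Mttp, Sar1b, Pla2g12b and Creb3l3, against 30.3% of all genes. The median log2 difference of the 10 was 0.08 for lactose over glucose, -0.02 for galactose over glucose and 0.12 for lactose over galactose, beside -0.03, -0.00 and -0.02 over all tested genes. Lactose and galactose were set against the same glucose mice, so those comparisons share their controls. Scaling by library totals in place of TMM factors shifts every log2 difference by -0.14 for lactose over galactose and by -0.10 for lactose over glucose. On that scale Creb3l3 (0.21), Sar1b (0.19) and Pla2g12b (0.17) were called higher and Apob (-0.38), Apoa4 (-0.27) and Tm6sf2 (-0.12) lower with lactose than with galactose, and Mttp (0.08) was not called. Of all genes 7.26% were then higher and 33.8% lower. Against glucose, 1 of the 10, Apoa4 (-0.27), was called lower on that scale and neither Sar1b (0.12) nor Mttp (0.09) was called, with 4.25% of all genes higher and 19.8% lower.

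**Figure D2:**
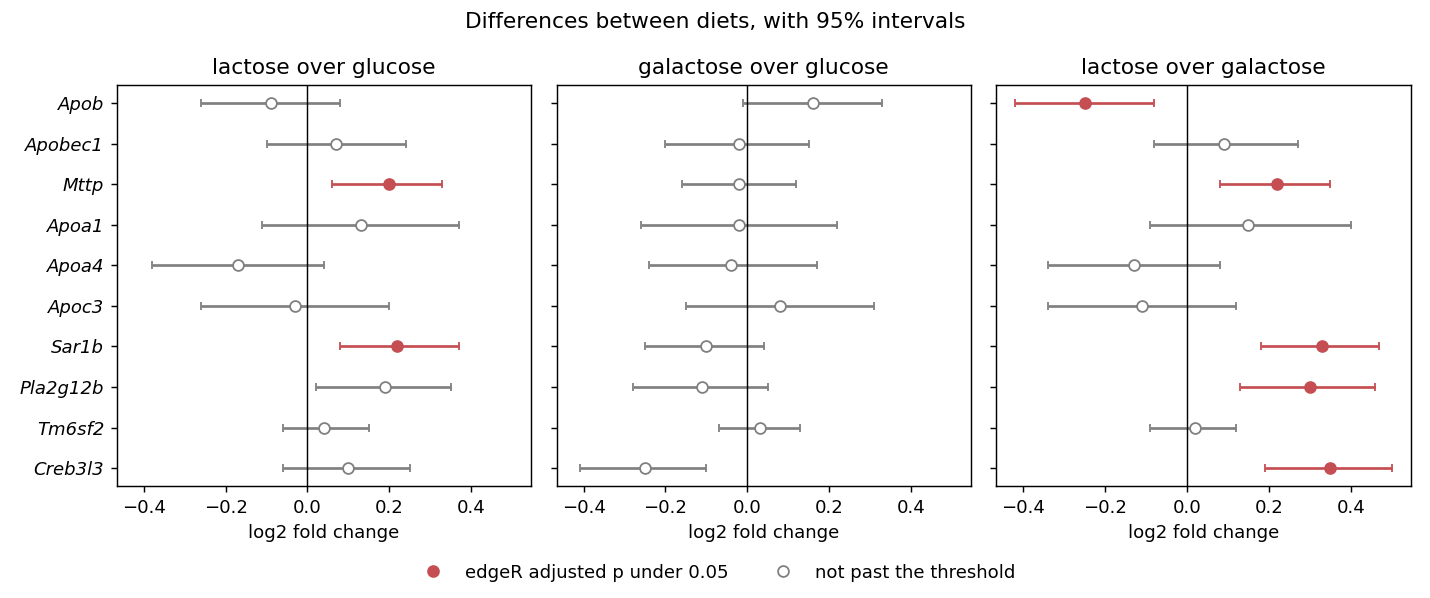
Log2 fold changes of the 10 genes (horizontal axis) in the 3 diet comparisons, with 95% intervals from edgeR; filled red points passed an adjusted p of 0.05 and open grey points did not. The filled points are Mttp and Sar1b for lactose over glucose, and Apob, Mttp, Sar1b, Pla2g12b and Creb3l3 for lactose over galactose.

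Apob, the structural protein of the particle, was lower with lactose than with galactose. Its CPM ran from 2347 over a median of 3226 to 3945 in lactose mice, from 3046 over 3770 to 5192 in galactose mice and from 2627 over 3394 to 4625 in glucose mice. All 3 ranges overlapped, but 11 of 13 lactose mice lay below the galactose mean. Apob averaged 3248 ± 457 CPM in lactose mice and 3862 ± 618 CPM in galactose mice (SD, n = 13 each), a log2 difference of -0.25 (SE 0.09, edgeR adjusted p = 0.0242). Galactose over glucose, which averaged 3464 ± 539 CPM, gave 0.16 (SE 0.09, edgeR adjusted p = 0.295), and lactose over glucose was -0.09 (SE 0.09, edgeR adjusted p = 0.476). Neither of those passed.

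Apobec1, which edits Apob messenger RNA into the form for the short gut protein, did not pass in any comparison. It ranged over 73.9 to 156 CPM with a median of 87.0 in lactose mice, 64.2 to 120 with a median of 88.6 in galactose mice and 70.5 to 105 with a median of 93.6 in glucose mice. The ranges lay over each other, with 1 lactose mouse highest. The log2 differences were 0.09 for lactose over galactose (95% interval -0.08 to 0.27), 0.07 for lactose over glucose (-0.10 to 0.24) and -0.02 for galactose over glucose (-0.20 to 0.15).

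Mttp, the lipid loader of Apob, was higher with lactose than with either other diet. It ran from 3911 over a median of 4876 to 6133 CPM in lactose mice, from 3571 over 4079 to 5477 CPM in galactose mice and from 2964 over 4415 to 4842 CPM in glucose mice. The ranges overlapped, and 12 of 13 lactose mice exceeded the galactose mean as well as the glucose mean. The log2 difference was 0.22 for lactose over galactose (SE 0.07, edgeR adjusted p = 0.0165) and 0.20 for lactose over glucose (SE 0.07, edgeR adjusted p = 0.0485). Galactose and glucose averaged 4204 ± 527 and 4259 ± 489 CPM (SD, n = 13 each), a log2 difference of -0.02 (95% interval -0.16 to 0.12). The call against glucose sat at the threshold. Of the 39 fits that each left out 1 library, it was kept only without glucose 3, 4, 7 or 8, galactose 8 or lactose 3, 4, 7 or 11, with edgeR adjusted p between 0.0261 and 0.0911 over all 39. The call against galactose was kept in all 39.

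The ratio of Mttp to Apob within a mouse does not depend on how libraries were scaled, and was chosen after these values were seen, so it is given without a test. It may still vary with the balance of long and short transcripts described further on, which was not tested. With the length index as a covariate, lactose over galactose was -0.05 for Apob and 0.23 for Mttp, against -0.25 and 0.22 without it. That index differs between the diets, so diet and length balance cannot be told apart in this fit. The log2 ratio averaged 0.59 ± 0.24 in lactose mice, 0.13 ± 0.24 in galactose mice and 0.30 ± 0.24 in glucose mice (SD, n = 13 each). It ranged from 0.17 over a median of 0.64 to 0.98 in lactose mice, from -0.47 over 0.17 to 0.47 in galactose mice and from -0.21 over 0.38 to 0.61 in glucose mice. In 10 of 13 lactose mice the ratio was above that of every galactose mouse. The log2 ratio of Creb3l3 to Apob averaged -1.37 ± 0.27 in lactose mice, -1.98 ± 0.29 in galactose mice and -1.56 ± 0.23 in glucose mice. The log2 ratio of Sar1b to Mttp averaged -3.68 ± 0.17 in lactose mice, -3.79 ± 0.11 in galactose mice and -3.71 ± 0.15 in glucose mice.

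**Figure D3:**
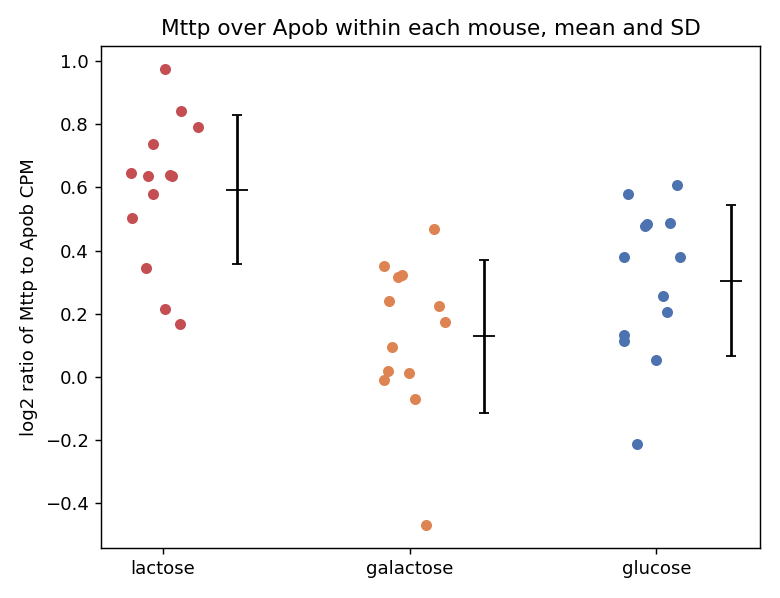
Log2 ratio of Mttp CPM to Apob CPM (vertical axis) in each mouse, by diet, with 1 point per mouse and black bars for mean and SD (n = 13). Lactose mice averaged 0.59, galactose mice 0.13 and glucose mice 0.30, with 10 of 13 lactose mice above all galactose mice.

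The surface apolipoproteins Apoa1, Apoa4 and Apoc3 did not pass in any of the 3 comparisons. Apoa4, which enterocytes secrete on chylomicrons after a fat meal, ran from 17160 over a median of 23210 to 33290 CPM in lactose mice. Its level ran from 20490 over 27360 to 31140 CPM in galactose mice and from 17290 over 27600 to 32850 CPM in glucose mice. The 3 ranges overlapped, but 11 of 13 lactose mice lay below the glucose mean and 10 of 13 below the galactose mean. The log2 difference was -0.13 for lactose over galactose (SE 0.11, edgeR adjusted p = 0.356), -0.17 for lactose over glucose (SE 0.11, edgeR adjusted p = 0.270) and -0.04 for galactose over glucose (SE 0.11, edgeR adjusted p = 0.872). On library totals Apoa4 was called lower with lactose against galactose (-0.27, edgeR adjusted p = 0.0259) and against glucose (-0.27, 0.0407). Of all genes 33.8% and 19.8% were lower on that scale. An antisense gene over Apoa4, Gm10680, had a median of 4756 counts against 509353 for Apoa4. The strand setting of the counting is not given in the sources used here, so reads of that pair cannot be told apart.

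Apoa1, the main protein of high-density lipoprotein, ran from 7339 over a median of 10320 to 14030 CPM in lactose mice, from 6304 over 9464 to 13900 CPM in galactose mice and from 6462 over 9201 to 14870 CPM in glucose mice. Its ranges overlapped almost wholly, and the log2 difference was 0.15 for lactose over galactose (95% interval -0.09 to 0.40) and 0.13 for lactose over glucose (-0.11 to 0.37). Apoc3, an inhibitor of the clearance of triglyceride-rich particles, ran from 598 over 835 to 1221 CPM in lactose mice, from 708 over 980 to 1321 CPM in galactose mice and from 595 over 856 to 1228 CPM in glucose mice. It too showed no separation of the diets, with log2 differences of -0.11 for lactose over galactose (95% interval -0.34 to 0.12) and -0.03 for lactose over glucose (-0.26 to 0.20). Galactose over glucose gave -0.02 for Apoa1 (95% interval -0.26 to 0.22) and 0.08 for Apoc3 (-0.15 to 0.31).

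Sar1b, the GTPase that starts the COPII coat and whose loss in people causes retention of chylomicrons in enterocytes, was higher with lactose than with either other diet. Its CPM ran from 306 over a median of 392 to 494 in lactose mice, from 261 over 291 to 385 in galactose mice and from 267 over 338 to 379 in glucose mice. All 13 lactose mice exceeded the galactose mean, and 7 lay above every galactose mouse. Lactose averaged 381 ± 50.7 CPM and galactose 304 ± 43.6 CPM (SD, n = 13 each), a log2 difference of 0.33 (SE 0.07, edgeR adjusted p = 0.000817). Lactose over glucose, which averaged 326 ± 38.3 CPM, gave 0.22 (SE 0.07, edgeR adjusted p = 0.034), and galactose over glucose gave -0.10 (SE 0.07, edgeR adjusted p = 0.440). The call against glucose was lost without glucose 1, 5, 9, 11 or 13 or lactose 8, 9 or 10, with edgeR adjusted p between 0.0207 and 0.0716 over the 39 fits without 1 library.

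Pla2g12b, a relative of secreted phospholipases without known enzyme activity, was higher with lactose than with galactose. It ran from 81.7 over a median of 104 to 128 CPM in lactose mice, from 55.6 over 85.9 to 108 CPM in galactose mice and from 67.9 over 88.0 to 120 CPM in glucose mice. The ranges overlapped, and 12 of 13 lactose mice exceeded the galactose mean. The log2 difference was 0.30 for lactose over galactose (SE 0.08, edgeR adjusted p = 0.00605), 0.19 for lactose over glucose (SE 0.08, edgeR adjusted p = 0.117) and -0.11 for galactose over glucose (SE 0.08, edgeR adjusted p = 0.470). Tm6sf2, its partner in particle lipidation, ran from 513 over 558 to 625 CPM in lactose mice, from 433 over 572 to 678 CPM in galactose mice and from 446 over 549 to 592 CPM in glucose mice. It did not pass, with narrow intervals of -0.09 to 0.12 for lactose over galactose, -0.06 to 0.15 for lactose over glucose and -0.07 to 0.13 for galactose over glucose on the log2 scale.

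Creb3l3, the transcription factor of the group, was higher with lactose than with galactose. It ran from 993 over a median of 1305 to 1461 CPM in lactose mice, from 641 over 991 to 1158 CPM in galactose mice and from 876 over 1184 to 1523 CPM in glucose mice. All 13 lactose mice exceeded the galactose mean and 10 of them exceeded every galactose mouse, while lactose and glucose mice overlapped. Lactose averaged 1250 ± 140 CPM and galactose 983 ± 150 CPM (SD, n = 13 each), a log2 difference of 0.35 (SE 0.08, edgeR adjusted p = 0.000865). Lactose over glucose, at 1170 ± 159 CPM, gave 0.10 (SE 0.08, edgeR adjusted p = 0.415). Galactose over glucose gave -0.25 (SE 0.08, edgeR adjusted p = 0.0600) with all 13 galactose mice below the glucose mean, a value just outside the threshold. It passed without glucose 1, 9 or 11, galactose 3 or 7, or lactose 1, with edgeR adjusted p between 0.0295 and 0.113 over the 39 fits without 1 library.

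Several measures of the libraries moved with these genes. A tissue score, the mean of scaled log2 CPM over the stem cell, smooth muscle and fibroblast markers, averaged -0.57 ± 0.37 in lactose mice, 0.54 ± 0.52 in galactose mice and 0.03 ± 0.52 in glucose mice (SD, n = 13 each). With this score as a covariate none of the 10 genes passed edgeR in any comparison, and of all tested genes 4.03% passed for lactose over glucose, 1.33% for galactose over glucose and 4.43% for lactose over galactose, so that a count of 0 is near the background. The lactose over galactose values were then 0.16 for Creb3l3 (edgeR adjusted p = 0.469), 0.13 for Sar1b (0.522), 0.08 for Pla2g12b (0.786), 0.08 for Mttp (0.745) and -0.31 for Apob (0.142). Because the score itself differs between the diets, diet and tissue makeup cannot be told apart in those fits. The clock score, built from circadian genes, averaged 0.74 ± 1.41 in lactose mice, -0.68 ± 1.96 in galactose mice and -0.06 ± 1.83 in glucose mice. With the clock score in the model, the 5 calls between lactose and galactose were kept, where 28.1% of all genes passed. The values were then 0.25 for Creb3l3 (edgeR adjusted p = 0.00655), 0.36 for Sar1b (0.000673), 0.25 for Pla2g12b (0.0256), 0.28 for Mttp (0.0019) and -0.25 for Apob (0.0347).

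Apob has an exon length of 13934 bases, the longest of the 10, and followed the balance of long and short transcripts in a library. A length index was taken as the mean log2 deviation of 2612 genes over 6000 bases minus that of 514 genes under 1500 bases. It averaged -0.08 ± 0.24 in lactose mice, 0.14 ± 0.15 in galactose mice and -0.06 ± 0.16 in glucose mice (SD, n = 13 each). Over the 39 mice, with diet means removed, Apob correlated with it at Pearson r = 0.77 and Spearman rho = 0.75, each with a permutation p of 1e-05, the smallest that 100000 permutations can give. Adjusted over the 50 relations of 10 genes with 5 measures, p was 0.000167 and 0.0005. The r was 0.76 without the 2 farthest mice, 0.88 within title numbers 1 to 18 and 0.73 within 49 to 69. With the index as a covariate, Apob in lactose over galactose was -0.05 (edgeR adjusted p = 0.579) and Pla2g12b 0.21 (0.0778), whereas Creb3l3, Sar1b and Mttp passed. Because the index itself differs between the diets, diet and length balance cannot be told apart in that fit.

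Creb3l3 correlated with the clock score at r = 0.61 and rho = 0.54 (permutation p = 8e-05 and 0.00091, adjusted 0.0004 and 0.00414), and r was 0.55 without the 2 farthest mice. Within title numbers 1 to 18 the r was 0.76 and within 49 to 69 it was 0.32. Mttp correlated with it negatively, at r = -0.44 and rho = -0.42 (permutation p = 0.00641 and 0.00855, adjusted 0.0199 and 0.0266), with r of -0.38 without the 2 farthest mice and -0.36 and -0.62 within the runs. The enterocyte marker score correlated with 6 of the 10 genes past an adjusted permutation p of 0.05, all positive, led by Tm6sf2 (r = 0.74), Creb3l3 (0.69) and Apobec1 (0.69). With a T cell marker score, given without a test, r was 0.66 for Tm6sf2, 0.43 for Creb3l3 and 0.75 for Apobec1. The stem cell score correlated negatively with 8 of the 10, at r = -0.65 for Pla2g12b and -0.61 for Apoc3. Sar1b correlated with the tissue score at r = -0.43 and rho = -0.47 (permutation p = 0.00742 and 0.00405, adjusted 0.0206 and 0.0145), with r of -0.37 and -0.43 within the 2 runs of title numbers and -0.42 without the 2 farthest mice. Tm6sf2 (r = -0.53), Pla2g12b (-0.45) and Creb3l3 (-0.44) also passed with that score by r. By rho Tm6sf2 passed (-0.44, adjusted permutation p = 0.0258), but Pla2g12b (-0.37, 0.0587) and Creb3l3 (-0.29, 0.159) did not. Mttp passed by rho only (-0.42, adjusted permutation p = 0.0266). Within title numbers 1 to 18 and 49 to 69, r was -0.69 and -0.26 for Tm6sf2, -0.65 and -0.07 for Pla2g12b, and -0.60 and -0.09 for Creb3l3.

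**Figure D4:**
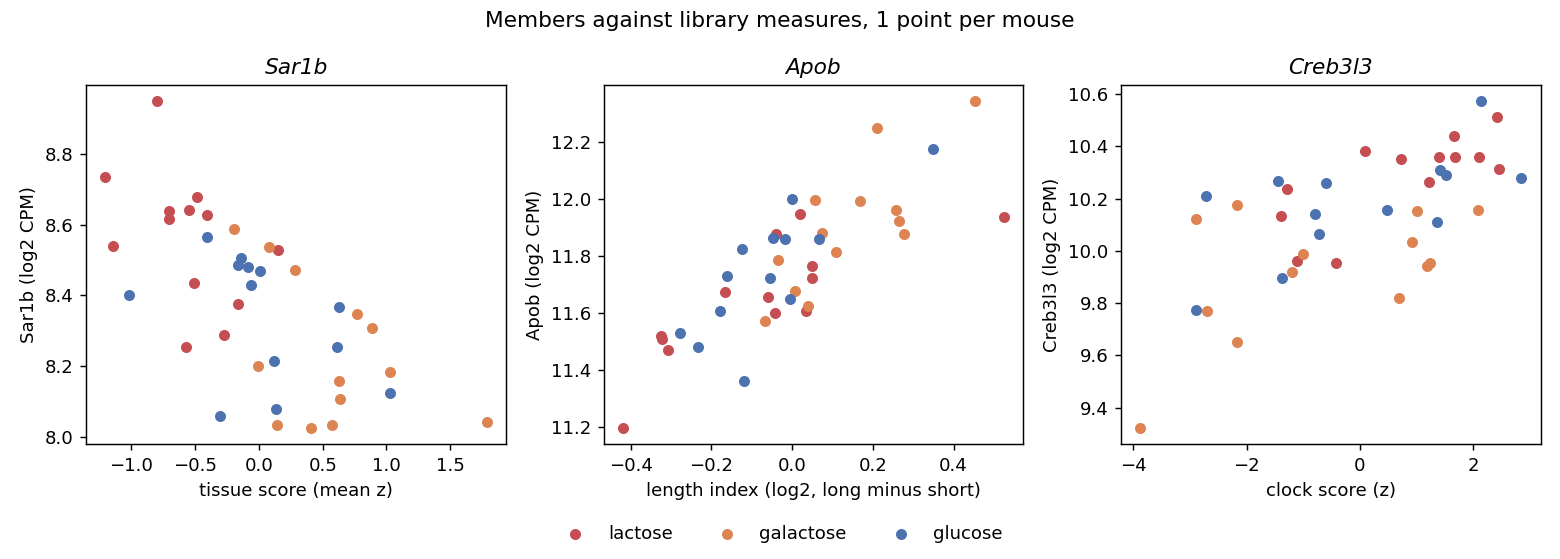
Log2 CPM of Sar1b, Apob and Creb3l3 (vertical axes) against the tissue score, the length index and the clock score of the same library (horizontal axes), with 1 point per mouse coloured by diet. Diet means are kept in these plots, unlike in the r values given in the text. Sar1b falls with the tissue score, on which galactose mice lie to the right (mean 0.54) and lactose mice to the left (mean -0.57). Apob rises with the length index and Creb3l3 with the clock score.

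The title numbers fall into 2 runs, 1 to 18 with 6 mice per diet and 49 to 69 with 7 mice per diet, which the labels do not call batches. No gene showed a diet difference that itself differed between the runs in edgeR, with 0 of 14658 genes called, 842 of them at an unadjusted p under 0.05, and 0 of the 10. Lactose over galactose values were 0.25 and 0.41 for Creb3l3, 0.24 and 0.38 for Sar1b and 0.23 and 0.34 for Pla2g12b in the first and second run. They were 0.23 and 0.19 for Mttp and -0.27 and -0.24 for Apob. The direction was the same in both runs for all 5. These 5 were picked by the fit of both runs together, so the agreement is not a separate replication. Within the runs edgeR called 0 of the 10 in the first and 3, Creb3l3, Sar1b and Pla2g12b, in the second, where 6.47% and 20% of all genes passed.

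Across the 39 mice, with diet means removed, 23 of the 45 pairs of these genes correlated past an adjusted permutation p of 0.05, all positively. The r was at least 0.5 in 19 of the 45 pairs, compared with 3.51% of all pairs of tested genes. These points share their library, scaling factor and cell makeup. Apoa1 and Apoc3, neighbours on chromosome 9, went together most closely, with r = 0.86 and rho = 0.88 (permutation p = 1e-05 each, adjusted over 45 pairs 5.62e-05 and 7.5e-05). That r was 0.84 without the 2 farthest mice and 0.94 and 0.86 within the first and second run, and Apoc3 was the second closest of 14657 genes to Apoa1. Apoa4 joined them at r = 0.72 with Apoc3 and 0.60 with Apoa1. Pla2g12b, on chromosome 10, went with Apoa1 at r = 0.83, with Creb3l3 at 0.78, with Tm6sf2 at 0.77 and with Apoc3 at 0.76, each with an adjusted permutation p of 5.62e-05.

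Mttp correlated past the threshold with 1 gene, Sar1b, at r = 0.68 and rho = 0.69 (permutation p = 1e-05 each, adjusted 5.62e-05 and 7.5e-05), with r of 0.61 without the 2 farthest mice and 0.58 and 0.76 within the runs. With the other 8 genes its r lay between 0.01 and 0.26. Sar1b itself also correlated past the threshold with Tm6sf2 (r = 0.60), Pla2g12b (0.56), Apoa1 (0.53), Apobec1 (0.51), Apoc3 (0.47) and Creb3l3 (0.43). Of 14657 genes, 2.53% had an r with Sar1b at least as high as Tm6sf2, and 9.96% at least as high as Creb3l3. Apob correlated with none of the 9 others, at r between -0.11 and 0.26, the lowest with its editing enzyme Apobec1. Without the 2 mice farthest from the median of Apob, Apob and Mttp reached r = 0.41 with an adjusted permutation p of 0.0324. The number of pairs depended on scaling. It was 9 of 45 with library totals in place of TMM factors, among them Apoa1 with Apoc3 (r = 0.82) and Mttp with Sar1b (r = 0.59), and 23 with the tissue score removed.

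**Figure D5:**
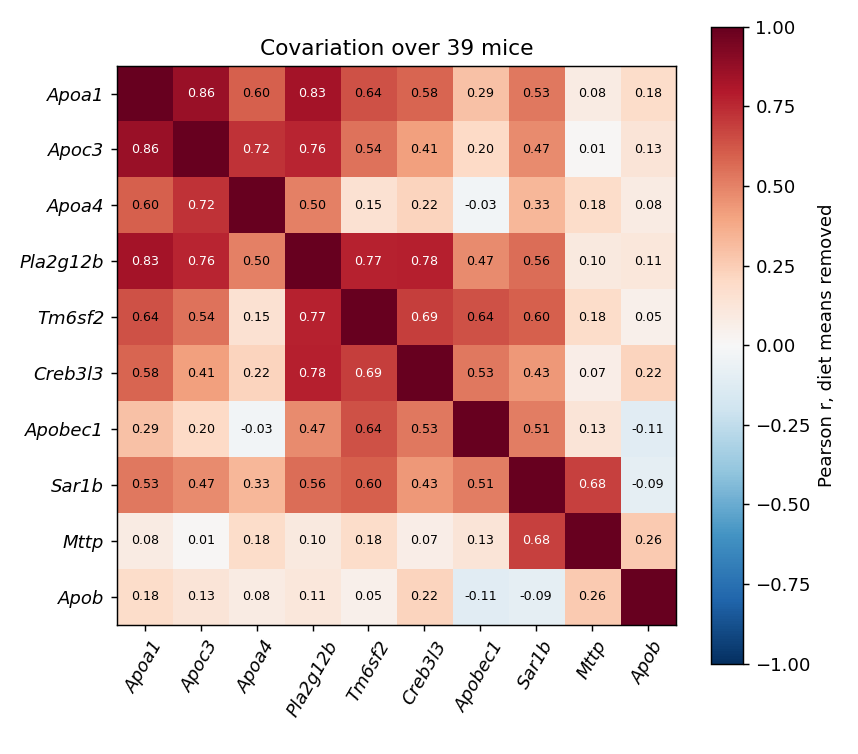
Pearson r of log2 CPM between each pair of the 10 genes over 39 mice after removal of diet means, as a coloured grid with r written in each cell; the colour scale runs from -1 (blue) to 1 (red). Apoa1, Apoc3, Pla2g12b, Tm6sf2 and Creb3l3 are red with one another at 0.41 to 0.86, Apoa4 is at 0.15 with Tm6sf2 and 0.22 with Creb3l3, Mttp is at 0.68 with Sar1b and at most 0.26 with the rest, and the row of Apob stays between -0.11 and 0.26.

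The genes outside the 10 that followed each most closely over the 39 mice were named by r with diet means removed, with no test. Sar1b went with Pgrmc1 (r = 0.90), a membrane haem-binding protein, Mettl9 (0.88) and Acadl (0.86), an enzyme of mitochondrial fatty acid oxidation. Tm6sf2 went with Mogat2 (0.88), the acyltransferase that rebuilds triglyceride from monoglyceride in enterocytes, Glmp (0.88) and Cideb (0.88), which acts in lipoprotein lipidation. Creb3l3 went with the peroxisomal thiolase Acaa1a (0.89), Ormdl3 (0.87) and Sult2b1 (0.85), and Mttp with Ap3m1 (0.85), Slc25a46 (0.84) and the acyl-CoA synthetase Acsl5 (0.82). Apoa1 went with Crip1 (0.87), H2-Q2 (0.86) and Tmem59 (0.85), Apoc3 with Syf2, Gm11127 and Crip1 (0.82 each), and Apoa4 with Dctn2 (0.82), Bspry (0.81) and its own antisense gene Gm10680 (0.80). Pla2g12b went with Ndfip1, Pigc and Rhog (0.88 each), and Apobec1 with Abhd12 (0.83), B3gnt3 (0.82) and Hagh (0.79). Apob went with Pi4ka (0.84), Akap9 (0.84) and Prpf8 (0.83).

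A further list held 18 genes of fatty acid uptake and binding, triglyceride resynthesis and lipid droplets. Of these, 10 of 18 rose in lactose over galactose in edgeR and 0 fell. Of all tested genes 15.9% were higher and 15% lower there. The median log2 difference of the 18 was 0.29, beside -0.02 for all tested genes. Fabp2, the intestinal fatty acid-binding protein, averaged 12210 ± 1949 CPM in lactose mice and 6166 ± 1073 CPM in galactose mice (log2 0.99, SE 0.12, edgeR adjusted p = 6.84e-08). The phosphatidate phosphatase Lpin2 (log2 0.85), the fatty acid translocase Cd36 (1.74) and the acyltransferase Gpat3 (0.46) rose as well. In lactose over glucose 6 of 18 rose and 0 fell, where 8.73% of all genes were higher and 6.84% lower. Among the 6 were Gpat3 (log2 0.48), Lpin2 (0.54), Fabp2 (0.54) and Lpin3 (0.38). In galactose over glucose 0 rose and 3 fell, Fabp1 (log2 -0.51), Plin2 (-0.49) and Fabp2 (-0.45), where 1.21% of all genes were higher and 2.87% lower.

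Of 21 genes of the COPII coat and chylomicron transport, 8 rose and 0 fell in lactose over glucose, and 6 rose and 0 fell in lactose over galactose. Of all tested genes 8.73% were higher and 6.84% lower over glucose, and 15.9% and 15% over galactose. On library totals, however, the list counts turned to 1 higher and 2 lower over glucose, and 1 higher and 6 lower over galactose. Of all genes 4.25% were then higher and 19.8% lower over glucose, and 7.26% and 33.8% over galactose. Tfg, which organises COPII exit sites, had log2 values of 0.39 over galactose (SE 0.07, edgeR adjusted p = 3.44e-05) and 0.29 over glucose (SE 0.07, edgeR adjusted p = 0.00328). Preb, the exchange factor that activates Sar1 proteins, rose by 0.25 over galactose, as did Mia2 (0.21), a receptor that loads large cargo, and Surf4 (0.17), a cargo receptor for lipoproteins. Sec24c (0.17), Sec23a (0.22) and Gosr2 (0.22) rose over glucose. In galactose over glucose 0 of the 21 passed edgeR, where 4.07% of all genes did.

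Of 10 partners of particle lipidation, 3 were higher and 0 lower with lactose in each of its 2 comparisons. Of all tested genes 15.9% were higher and 15% lower against galactose, and 8.73% and 6.84% against glucose. On library totals, however, 1 of the 10 was higher and 1 lower against galactose and 1 higher against glucose. Of all genes 7.26% were then higher and 33.8% lower against galactose, and 4.25% and 19.8% against glucose. P4hb, the disulfide isomerase that is the second subunit of the Mttp complex, averaged 4983 ± 558 CPM in lactose mice, 3941 ± 305 CPM in galactose mice and 4323 ± 477 CPM in glucose mice. Its log2 differences were 0.34 over galactose (edgeR adjusted p = 6.79e-05) and 0.21 over glucose (edgeR adjusted p = 0.0204). Soat2, which esterifies cholesterol, rose over glucose (0.36), Fitm2 rose over galactose (0.49) and Erlin1 rose over both (0.28 over glucose and 0.22 over galactose). Among other apolipoproteins only 4 of 11 passed the filter, and 1 of those, Apoa2, rose with lactose. Apoa2 ran from 3.00 over a median of 7.13 to 61.6 CPM in lactose mice, from 2.11 over 4.91 to 6.25 CPM in galactose mice and from 2.31 over 4.50 to 8.56 CPM in glucose mice, so the ranges overlapped and a few lactose mice were far above the rest. Its log2 difference was 1.82 over galactose (SE 0.38, edgeR adjusted p = 0.000315) and 1.77 over glucose (SE 0.38, edgeR adjusted p = 0.00126).

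Of 15 regulators of these genes, 3 rose and 2 fell in lactose over galactose, where 15.9% of all tested genes were higher and 15% lower. On library totals 2 of the 15 were higher and 6 lower, where 7.26% of all genes were higher and 33.8% lower. Ppara, the fatty acid receptor that activates fat-handling genes (log2 0.73, SE 0.15, edgeR adjusted p = 0.000394), the oxysterol receptor Nr1h3 (0.27) and the bile acid receptor Nr1h4 (0.48) rose. Mlxipl, the carbohydrate-sensing factor ChREBP (log2 -0.37, SE 0.10, edgeR adjusted p = 0.00412), and Mbtps1, the protease that cleaves membrane-bound factors such as Creb3l3 (-0.20), fell. In lactose over glucose Hnf4g (log2 0.40) and Nr1h3 (0.29) rose and Mlxipl (-0.38) fell, where 8.73% of all genes were higher and 6.84% lower. Of 6 cofactors of Apob editing, Rbm47 rose with lactose, by 0.18 over galactose and 0.21 over glucose on the log2 scale. Khsrp fell over glucose (-0.14). On library totals 0 of the 6 were higher and 2 lower against galactose, beside 7.26% and 33.8% of all genes. With the tissue score as a covariate, edgeR called in lactose over galactose 2 of the 18 fatty acid uptake, triglyceride and lipid droplet genes, both higher. None of the COPII, lipidation, apolipoprotein, regulator or editing genes was called, and 4.43% of all genes passed.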

How the data were processed

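The authors deposited raw counts per gene for 39 libraries, 1 file each. Per the submitters' processing notes, FastQC, STAR, HTSeq and build GRCm39 were used. Versions, annotation release and strand setting are not given in the sources used here. Of 56980 identifiers 52073 were matched to a symbol with reference tables of an earlier build. Exon lengths and overlaps come from the GENCODE annotation of GRCm38, so no GRCm39 coordinate is printed. Unassigned reads, 10.1% to 15.7% of each library, were left out.

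Counts were filtered with filterByExpr and scaled by TMM in edgeR 4.0.16 (R 4.3.3). Quasi-likelihood F tests, two-sided, used 1 mean per diet over all 39 libraries, with Benjamini-Hochberg adjustment over 14658 genes and a threshold of 0.05. CPM use TMM factors, and log2 CPM a prior count of 2. The steps were tested on simulated data. Correlations used 100000 permutations within diet. Genes, lists and tests were chosen with earlier results of these data known. All 10 chylomicron genes are named. From each of 6 pathway lists up to 4 called genes per comparison are named by smallest p, and Mbtps1, a further one, was named after its value was seen. Alternatives included DESeq2 1.42.0, limma 3.58.1 voom, other scalings and filters, covariates, each run of title numbers alone and fits without 1 library.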

Additional observations from a re-analysis of the deposited data

How the results depend on the processing

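Replacing TMM factors by library totals shifts all log2 differences by -0.10 for lactose over glucose, 0.03 for galactose over glucose and -0.14 for lactose over galactose. Tm6sf2 in lactose over galactose, 0.02 with TMM, was then -0.12 (edgeR adjusted p = 0.00807), and Apoa4 was called at -0.27 against galactose and against glucose. On library totals the split of called chylomicron genes was 0 higher and 1 lower for lactose over glucose, 0 higher and 1 lower for galactose over glucose, and 3 higher and 3 lower for lactose over galactose. Of all genes 4.25% were higher and 19.8% lower, 2.15% higher and 1.95% lower, and 7.26% higher and 33.8% lower in those comparisons. The cause was not tested.

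Of the 10 genes, the number called for lactose over glucose was 2, where 15.6% of all tested genes were called. Percentages in brackets are that share in the comparison and setting named. The number was 0 with limma voom (16.3%), without a filter (5.34%), with title numbers 1 to 18 alone (0.122%) and without the 7 libraries high in Ifit3 (11.4%). It was also 0 with the tissue (4.03%), enterocyte (13.2%), stem cell and cell cycle (11.5%), or smooth muscle and fibroblast (9.22%) score as covariate. It was 1 with library totals (24.1%), with only the diets compared (15.4%), with run as a covariate (16%) and without the library highest in pancreatic transcripts (15.4%). With title numbers 49 to 69 alone (13.7%) it was 3, Sar1b, Pla2g12b and Creb3l3. For galactose over glucose it was 0 (4.07%). It was 1, Creb3l3, with DESeq2 (5.58%), limma voom (8.51%), library totals (4.1%) and the block of 3 neighbouring title numbers (6.19%). It was also 1, Creb3l3, with the enterocyte (3.96%), clock (7.72%), or stem cell and cell cycle (6.82%) score. For lactose over galactose it was 5 (30.9%). It was 0 with title numbers 1 to 18 alone (6.47%) or with the tissue (4.43%) or the smooth muscle and fibroblast (9.23%) score. It was 3 with title numbers 49 to 69 alone (20%) or with the length index (26.7%). Without 1 library the numbers ranged from 0 to 2, 0 to 1 and 5 to 5. Title numbers in neighbouring sets of 3 hold 1 mouse per diet, but no label says that they pair mice. With this replicate block the numbers were 2 (20.6%), 1 (6.19%) and 5 (34.8%). Apob against galactose was also not called without the 7 Ifit3 libraries (-0.16, adjusted p = 0.207). With the stem cell and cell cycle score Apoa4 (-0.26) and Apoc3 (-0.27) were called lower against galactose, where 14% of all genes were lower. Correlated pairs numbered 23, 9 with library totals and 12 with title numbers 49 to 69 alone. The score and index covariates other than the tissue, enterocyte and clock scores were added after the data were seen.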
